A study of Homo sapiens with 18 samples.

Results

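The genes described here are the 100 whose mean normalized count was most raised when control libraries were part of a model, among 13617 genes that could have been taken and 60666 Ensembl gene IDs in all. The comparison behind them is between models. The authors' deposited table for ADAR3 WT over control gives each gene a mean over control and ADAR3 WT libraries, and the deposited table for R-mutant over ADAR3 WT gives one without control libraries. The ratio of the first mean to the second was taken for every gene with a first mean of at least 50 and a second above 0, and the 100 highest ratios are the members. The members were thus chosen by these mean values of both tables, and everything measured in those libraries is given as a description of them. Calls from tests run across whole tables are printed below only to describe and sort the members, not as evidence about them.

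The libraries come from RNA immunoprecipitation sequencing in U373-MG, an established cell line from a human glioblastoma. Cells were transduced by retrovirus with an empty vector carrying antibiotic resistance (genotype U373 + Control), with FLAG-tagged wild-type ADAR3 (U373 + ADAR3 Wild Type, ADAR3 WT below) or with FLAG-tagged ADAR3 mutated in its R-domain (U373 + ADAR3 R-Mutant). All cells grew in G418, received UV crosslinking at 150 mJ/cm2 before lysis and gave both an input and an immunoprecipitated (IP) library, with 3 replicates in each of the 6 groups. The labels do not say whether replicates were separate cultures, both ADAR3 forms are exogenous, and depth per library is unknown.

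ADAR3 belongs to the family of adenosine deaminases that act on double-stranded RNA, but it has no detectable editing activity. It is normally made in the brain, and it carries an arginine-rich R-domain that can bind single-stranded RNA beside its double-stranded RNA-binding domains. Empty-vector cells make no FLAG-tagged protein, so RNA in their IP is what stays on antibody and beads without a tagged bait, and it serves as the background of the assay. The tables name genes by Ensembl ID without symbols, and the reference tables used here pair none of the members with a symbol. Members are therefore given by their rank in the ratio, from 1 for the highest to 100, with an ID for at most 2 genes in each direction of a comparison, and no sequence is shown.

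A few members stood far out, and most lay close to the limit. The ratio was 7.97 at rank 1, at least 3 in 5 members, at least 2 in 8 and at least 1.5 in 20. The median member had a ratio of 1.34, against a median of 0.94 over all 13617 genes. At the limit, ranks 96 to 100 had ratios of 1.27, and so did ranks 101 to 105. In ADAR3 WT over control, log2 fold changes of IP enrichment were -1.18, -0.32, -1.55, -1.52 and -1.96 for the last 5 inside and -1.18, -1.41, -1.04, -0.83 and -1.19 for the first 5 outside, in the authors' deposited table. The limit thus falls in a continuous series, and ranks 8 and 100 differ more from each other than ranks 100 and 105 do.

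The members covered almost the whole range of abundance. Their mean in ADAR3 WT over control ran from 50.1 to 453191 normalized counts, with a median of 181 against 920 over all genes the rule could take. It was under 100 for 30 members and at least 1000 for 27. Ranks 35, 40 and 42 were the most abundant, and these 3 alone made up 2.90% of the summed means of ADAR3 WT over control, while the other 97 members together made up 0.388%. In R-mutant over control the same 3 genes held 2.81% and in R-mutant over ADAR3 WT 2.02%. Their share was lowest in the IP model without control libraries, a direction that the rule fixes in large part. For input the 3 most abundant members were ranks 35, 42 and 64, which held 2.18%.

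A ratio of this kind compares control with the R-mutant, because ADAR3 WT libraries enter both means. To see all genotypes, the means of the 3 IP tables were solved for a mean per genotype, with each table taken as the plain average of its 2 genotypes. This gives an estimate over input and IP libraries together. By that estimate the control mean was the highest of the 3 genotypes for 98 of 100 members, where it was the highest for 10.0% of all genes the rule could take. When each table was first divided by its median ratio to ADAR3 WT over control, the figures were 99 members and 43.2% of all genes. That scaling moved the median log2 ratio of control to ADAR3 WT over all genes by 0.41, and of control to R-mutant by 0.19. The rule fixes this direction in large part, so the count describes the members and supports nothing further.

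How far the control stood above the other genotypes depended on the scaling. The estimated control mean was at least 2 times both other means in 13 members as deposited and in 21 after scaling, against 0.0955% and 0.154% of all genes the rule could take. It was at least 1.5 times both in 47 and 94 members, against 0.353% and 1.29% of all genes. Rank 1 had estimated means of 433 normalized counts in control, 36.6 in ADAR3 WT and 22.2 in R-mutant. For rank 3 they were 2466 in control, 284 in ADAR3 WT and 238 in R-mutant. Rank 7, a far more abundant RNA, had 19161 in control, 5345 in ADAR3 WT and 4245 in R-mutant. After scaling they were 454 in control, 14.9 in ADAR3 WT and 40.7 in R-mutant for rank 1. For rank 3 the scaled means were 2601, 149 and 343 in the same order, and for rank 7 they were 20466, 4040 and 5011. Both ADAR3 genotypes lay well under the control in these 3 genes with and without scaling. ADAR3 WT was above R-mutant as deposited and below it after scaling, so these estimates do not settle the order of the ADAR3 forms. The median member had a log2 ratio of control to ADAR3 WT that lay 0.96 above the median of all genes as deposited and 0.93 above it after scaling. For control to R-mutant the corresponding values were 1.00 and 0.88.

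**Figure D1:**
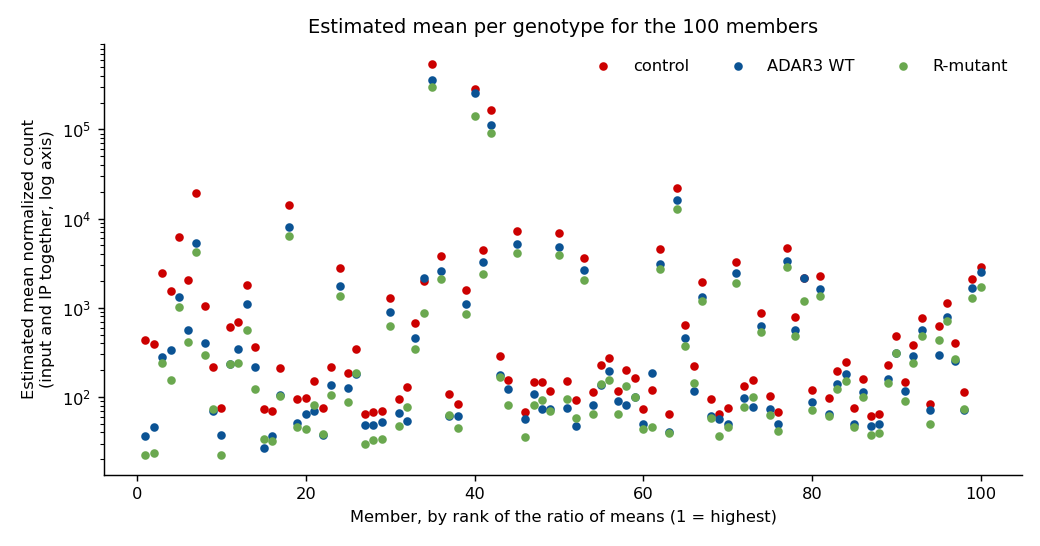
Estimated mean normalized count per genotype (log axis, input and IP libraries together) for each of the 100 members, ordered by rank of the ratio of means. Red control points lie above blue ADAR3 WT and green R-mutant points for 98 members. The widest margins are at the left, where ranks 1 to 8 have ratios of at least 2.

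The exceptions were ranks 34 and 61, where the estimate was highest in ADAR3 WT. Rank 34 had 1995 in control, 2166 in ADAR3 WT and 865 in R-mutant, and rank 61 had 120 in control, 184 in ADAR3 WT and 45.7 in R-mutant. After scaling only rank 61 kept ADAR3 WT as the highest. What these genes share is a low R-mutant mean, which the rule takes up in the same way as a high control mean.

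Nearly all members had fold changes of IP enrichment below 0 for both ADAR3 genotypes against control, 90 of 100 for ADAR3 WT and 92 for R-mutant, against 53.0% and 52.5% of all genes the rule could take. IP enrichment here means IP over input in one genotype relative to IP over input in the other, as the deposited fold changes are read, and a call is a Benjamini-Hochberg adjusted p under 0.05 in a two-sided normal test of fold over standard error across the whole table. In ADAR3 WT over control, 46 of 100 members were lower and 0 were higher, where 8.14% of 21121 genes tested were lower and 5.99% were higher. At an unadjusted p under 0.05 in the same normal test, 63 members were lower and 2 higher, where 13.5% and 11.7% of all genes were. In R-mutant over control, 52 of 100 were lower and 0 higher, where 7.95% of 21120 genes were lower and 5.38% higher, and at an unadjusted p under 0.05 the counts were 64 and 1, where the shares of all genes were 13.3% and 11.5%. The control libraries that raised the ratio stand in the denominator of both folds, so nothing is read from these shares. Counts were normalized between libraries, so a lower value is relative to the other RNAs.

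In the authors' deposited tables the members had a median log2 fold change of -1.20 for ADAR3 WT over control and -1.32 for R-mutant over control, against -0.04 and -0.03 over all genes the rule could take. At least a 2-fold lower value was seen in 61 and 68 members, against 6.87% and 8.17% of all genes the rule could take. By the authors' own adjusted p, 97 members passed in ADAR3 WT over control and 95 did so for the R-mutant, where 43.0% and 40.8% of all genes tested passed in either direction. The authors' test is a likelihood ratio test that covers more than this fold, so those counts do not measure it alone.

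By these calls the members fall into 5 sets. There were 44 lower in both IP comparisons, 2 lower in ADAR3 WT over control alone, 8 lower in R-mutant over control alone, 8 lower in input without an IP call, and 38 with no call. A call in one comparison and not in the other does not show that the genotypes differ. The direct comparison, R-mutant over ADAR3 WT, called none of them, but it called only 1 of 23385 genes tested.

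The 44 genes lower in both IP comparisons had low IP values and near-level input. Their log2 fold changes ran from -5.20 to -0.89 in ADAR3 WT over control and from -4.23 to -0.94 in R-mutant over control, with medians of -1.82 and -1.86, in the authors' deposited tables. In input they centred on 0, with a median log2 fold change of -0.01 for ADAR3 WT over control and a range from -0.91 to 0.53. They were also the more abundant members, with a median mean of 702 normalized counts against 104 for the members with no call. Their median standard error in ADAR3 WT over control was 0.34, against 0.55 for the members with no call. A call depends on that error, so the difference in abundance is not read as a trait of the set.

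**Figure D2:**
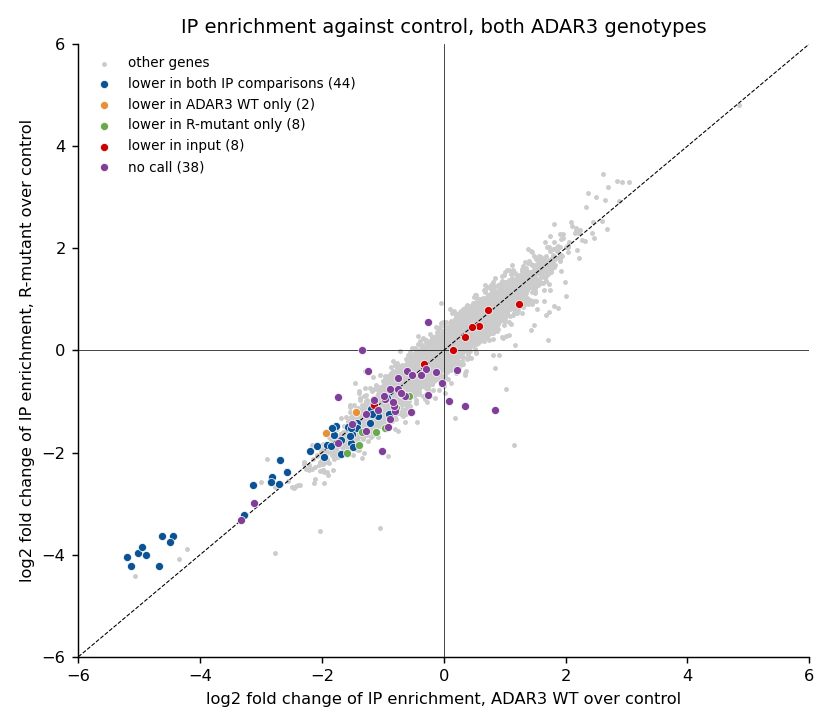
Log2 fold change of IP enrichment, with ADAR3 WT over control on the x axis and R-mutant over control on the y axis, for the 100 members by set and for the other genes the rule could take in grey. The dashed line marks equal folds, and both axes share the control libraries. The blue points at the lower left, with folds of -4.44 or lower on the x axis, lie above the dashed line.

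A group of 9 members had far the lowest values. In ADAR3 WT over control their log2 fold changes ran from -5.20 to -4.44 in the authors' deposited table, and the next lowest member followed at -3.33. Only 12 of the 13617 genes the rule could take had a fold of -4 or lower, and these 9 were among them. The lowest was ENSG00000226782, rank 1, at -5.20 ± 0.46 (standard error), and ENSG00000278771, rank 78, followed among members with a standard error of at most 1, at -5.02 ± 0.35 in the authors' deposited table. In R-mutant over control the same 9 ran from -4.23 to -3.64, with ENSG00000259001, rank 42, lowest at -4.23 ± 0.32 in the authors' deposited table.

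These 9 genes had ranks from 1 to 83, although their folds were alike. High ranks went with means far above the input mean. Rank 1 had a mean of 235 in ADAR3 WT over control and 21.5 in input. Rank 3 had 1375 and 155 in the authors' deposited tables. Rank 42 had 137109 in ADAR3 WT over control but 172308 in input, and rank 78 had 678 and 942. The genes whose input mean exceeded the mean of the IP model thus lay close to the limit of the rule. Ranks 5 and 6 lay between these ends. Rank 5 had a mean of 3771 against 1805 in input, and rank 6 had 1294 against 774.

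In the authors' deposited table for R-mutant over ADAR3 WT, all 9 of these genes had log2 fold changes above 0, from 0.43 to 1.13 with a median of 0.89. For rank 1 the value was 1.13 ± 0.64, for rank 3 it was 0.97 ± 0.34, for rank 36 it was 0.87 ± 0.34, for rank 78 it was 1.04 ± 0.37 and for rank 83 it was 1.10 ± 0.51. For rank 35 the standard error was 2.12. Choosing genes for low values in ADAR3 WT favours higher values in R-mutant over ADAR3 WT, since both use the ADAR3 WT libraries. None of the 9 was called, in a comparison that called almost no gene.

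No member passed the direct test between the ADAR3 forms, which almost no gene passed. In R-mutant over ADAR3 WT, 0 members were called by the normal test at an adjusted p under 0.05, where 0.00428% of 23385 genes tested were called. At an unadjusted p under 0.05, 9 members passed, 2 lower and 7 higher, where 0.385% and 0.239% of all genes passed. These shares of all genes lie well under the 0.05 that the threshold allows when nothing differs. The test was thus too strict here for a lack of calls to show that the ADAR3 forms are alike in the members. By the authors' adjusted p, 80 members passed in either direction, where 51.1% of all genes did. The median log2 fold change was -0.02 for members and -0.02 for all genes the rule could take, in the authors' deposited table. The 95% interval of the fold lay within a 2-fold difference for 46 members, against 93.9% of all genes the rule could take, so for 54 members a 2-fold difference was not excluded.

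The widest separations between the ADAR3 forms were in single genes. The highest value of R-mutant over ADAR3 WT was that of ENSG00000279569, rank 63, at 1.33 ± 0.57 in the authors' deposited table. Its values were -1.34 ± 0.59 in ADAR3 WT over control and 0.01 ± 0.68 in R-mutant over control. The lowest among members with a standard error of at most 1 was ENSG00000280441, rank 79, at -1.48 ± 0.70, followed by ENSG00000278996, rank 34, at -1.14 ± 0.75, in the authors' deposited table. The folds against control differed by more than 1 on the log2 scale between the 2 forms in 7 members. Among them were ranks 34 and 61, with standard errors of 1.38 and 2.53 in ADAR3 WT over control. Ranks 1, 78 and 83, of the group with the lowest folds of ADAR3 WT over control, were also among them. The share over all genes was not computed, so nothing is read from this count. The fold of R-mutant over ADAR3 WT is almost exactly the difference of the folds against control, with a median gap of 0.01 and a largest gap of 0.35 on the log2 scale, so it adds no separate measurement.

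**Figure D3:**
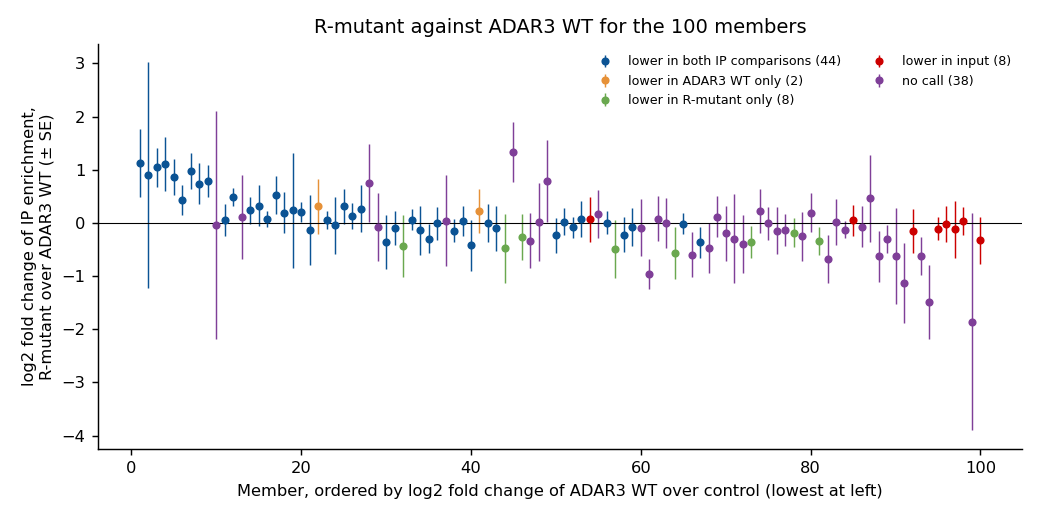
Log2 fold change of IP enrichment in R-mutant over ADAR3 WT with its standard error (vertical bars) for the 100 members, ordered from the lowest to the highest fold of ADAR3 WT over control. The first 9 points lie above 0, at 0.43 to 1.13, the rest scatter around 0, and the longest bars belong to members with standard errors above 2.

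A second kind of member had less input RNA in ADAR3 WT cells and no call in the IP. In input, 8 of the 98 members tested were lower in ADAR3 WT than in control and 0 were higher, where 0.186% of 20411 genes were lower and 0.103% higher (normal test, adjusted p under 0.05). In the normal test, 23 members were lower and 1 higher at an unadjusted p under 0.05, where 1.99% and 0.926% of all genes were. Of all 34 genes lower in input that the rule could take, 23.5% were members. Control input libraries may be part of the means that chose them, so this too is a description.

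The input folds of these 8 genes ran from -2.12 to -0.86 on the log2 scale in the authors' deposited table. The lowest were ENSG00000236719, rank 15, at -2.12 ± 0.37, and ENSG00000077264, rank 9, at -2.11 ± 0.37. Rank 58 had -2.06 ± 0.39, rank 52 had -1.99 ± 0.46, and rank 95, the most abundant of the 8 in input at a mean of 485, had -1.74 ± 0.24 in the authors' deposited table. Ranks 14, 32 and 97 completed the set at -1.41 ± 0.34, -1.37 ± 0.28 and -0.86 ± 0.19. No member had a called rise in input.

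IP enrichment of these 8 genes in ADAR3 WT over control lay on both sides of 0, from -1.15 to 1.24 with a median of 0.41, in the authors' deposited table. The highest of all members were ENSG00000233420, rank 52, at 1.24 ± 0.50 and ENSG00000130226, rank 14, at 0.73 ± 0.30 among those with a standard error of at most 1, and both belong to this set. Neither passed the test. Input counts enter the denominator of IP enrichment as it is read here, so the input and IP folds are not separate measurements. Of the 8 genes, 6 had IP values above 0, and 2 lay below it, rank 32 at -1.15 and rank 97 at -0.32. Whether lower input raised the IP values was not tested. Estimated genotype means put the R-mutant below control in these genes as in every member, a direction that the rule fixes. For rank 9 they were 216 in control, 68.9 in ADAR3 WT and 74.2 in R-mutant, and for rank 15 they were 73.4, 26.9 and 33.9. For rank 58 they were 200.3 in control, 80.3 in ADAR3 WT and 131 in R-mutant. By these estimates the R-mutant lay between the others in each of the 8 genes except rank 14. It was close to ADAR3 WT for ranks 9 and 15. For rank 14 the R-mutant was lowest, with 367 in control, 219 in ADAR3 WT and 123 in R-mutant. Input of the R-mutant was not analysed here as a comparison of its own, so no error can be put on either order.

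**Figure D4:**
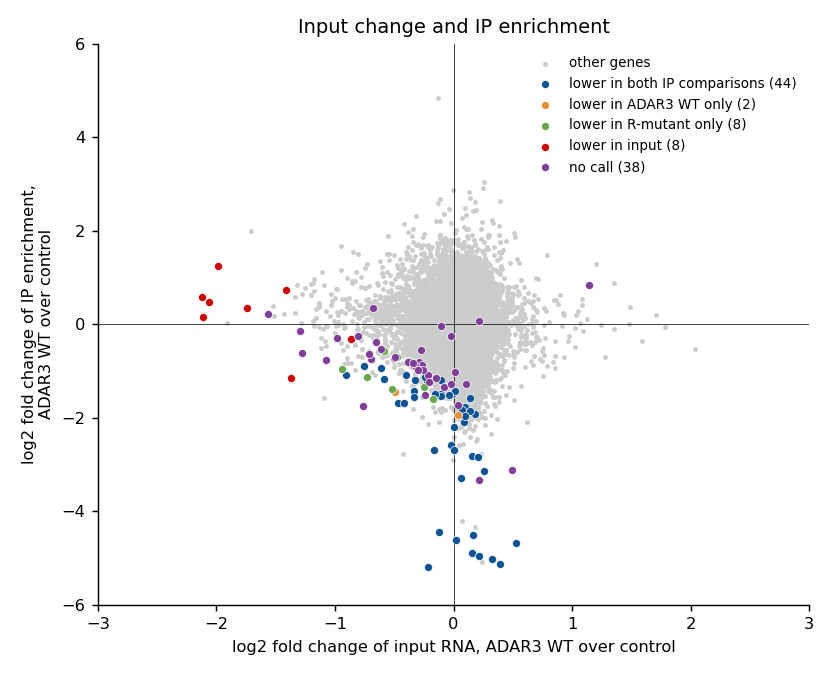
Log2 fold change of input RNA (x axis) against log2 fold change of IP enrichment (y axis), both for ADAR3 WT over control, for the members by set and for other genes in grey. The x axis ends at 3 on either side, which leaves out 1 gene that is no member. Blue points run down the middle, with low IP enrichment at input folds from -0.91 to 0.53, and the 8 red points lie to the left, at -2.12 to -0.86.

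Another kind of member had a mean in the IP model far above its mean in input. Among all genes the rule could take, 8 had a mean in ADAR3 WT over control of more than 10 times their mean in input, and 7 of these 8 were members, at ranks 1, 2, 34, 40, 61, 79 and 80. The mean in ADAR3 WT over control also enters the ratio that chose the members, so this count is a description. The typical gene had a mean of 0.85 times its input mean. The means come from separate normalizations, so only large differences are of use. In the authors' deposited tables rank 40 had a mean of 272453 in ADAR3 WT over control and 979 in input, a ratio of 278. Rank 34 had 2080 and 22.0, rank 79 had 2153 and 14.3, and rank 61 had 152 and 0.193.

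Apart from rank 1, these genes had large standard errors. Those of ADAR3 WT over control were 2.25 for rank 2, 1.38 for rank 34, 1.04 for rank 40, 2.53 for rank 61, 0.85 for rank 79 and 1.55 for rank 80, in the authors' deposited table. The median was 0.46 over members and 0.27 over all genes the rule could take. Only 13 of the 13617 genes had a standard error over 1 in that comparison, and 7 of them were members. Rank 2, the second highest ratio of all, had a log2 fold change of -3.33 ± 2.25 in ADAR3 WT over control and -3.33 ± 2.84 in R-mutant over control. Its 95% interval includes 0 in both. Rank 4 had -3.12 ± 1.34 in ADAR3 WT over control in the authors' deposited table. Values per library were not used here, so the part of single libraries in these ratios was not tested.

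For rank 40 the estimated means were 287621 in control, 257284 in ADAR3 WT and 143112 in R-mutant. The remaining gene with more than 10 times its input mean, which is no member, had a mean of 213623 in ADAR3 WT over control and 296 in input, and its estimates were 135921 in control, 291326 in ADAR3 WT and 143452 in R-mutant. It had rank 4859 in the ratio. Among members only rank 35 had a higher mean than rank 40. Both genes had standard errors near 1, at 1.04 and 0.82 in ADAR3 WT over control. The estimated means carry no error of their own, so the order of the genotypes for either gene was not tested.

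**Figure D5:**
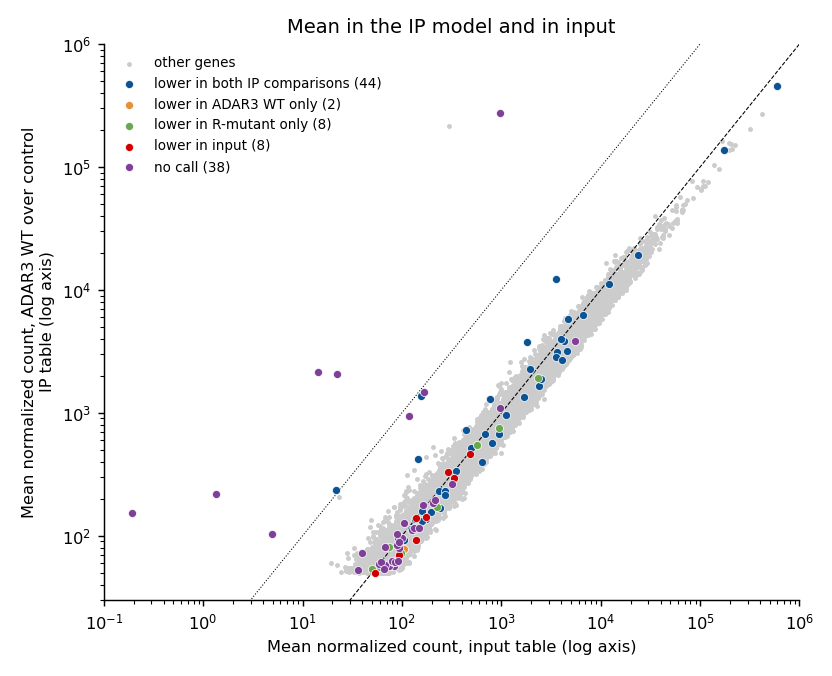
Mean normalized count in the ADAR3 WT over control IP table (y axis) against the mean in the input table (x axis), both on log axes, for the members by set and other genes in grey. The dashed line marks equal means and the dotted line 10 times the input mean. Above the dotted line lie 7 members and 1 other gene.

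The 38 members with no call include most of these noisy genes, but also many of low abundance. Their log2 fold changes in ADAR3 WT over control ran from -3.33 to 0.84 with a median of -0.81, and in R-mutant over control from -3.33 to 0.55 with a median of -0.94, in the authors' deposited tables. The median standard error was 0.55 in ADAR3 WT over control, against 0.34 for the genes lower in both. Rank 41 is an exception among them, with a mean of 3863 and a standard error of 0.21. In the authors' deposited tables its IP values were -0.37 ± 0.21 for ADAR3 WT and -0.49 ± 0.22 for the R-mutant, each over control, and its input value was -0.65 ± 0.28. All of them lay below 0 and none was called.

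The 8 genes lower in R-mutant over control alone had medians of -1.55 in that comparison and -1.04 in ADAR3 WT over control in the authors' deposited tables, with a median of -0.40 in R-mutant over ADAR3 WT. The pair lower in ADAR3 WT alone, ranks 68 and 88, had -1.44 ± 0.46 and -1.94 ± 0.62 in ADAR3 WT over control, against -1.20 ± 0.47 and -1.62 ± 0.62 in R-mutant over control. These values lie within their standard errors of each other. The test of the difference called none of the 10 genes, but it called almost no gene at all.

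Abundant members differed in how near the values of the ADAR3 forms lay. Rank 18, with a mean of 11120, had -2.70 ± 0.22 in ADAR3 WT over control and -2.61 ± 0.23 in R-mutant over control, and an input fold of 0.00 ± 0.18, in the authors' deposited tables. Rank 64, with a mean of 19268, had -2.09 ± 0.22, -1.87 ± 0.25 and 0.09 ± 0.22 in the same order. Rank 7 had -3.14 ± 0.19, -2.64 ± 0.22 and 0.26 ± 0.17. The direct fold of R-mutant over ADAR3 WT was 0.07 ± 0.15 for rank 18 and 0.21 ± 0.19 for rank 64. For rank 7 it was 0.48 ± 0.16 in the authors' deposited table. Each of these excludes a 2-fold difference at the 95% level. None of these genes was called, in a comparison that called almost no gene.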

How the data were processed

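Input and IP RNA of 18 libraries was sequenced after ribosomal RNA depletion, per the labels' protocols. GRCh38, featureCounts, DESeq2 and STAR 2.7.7a are named in the submitters' processing notes, without their roles. Not given in the sources used here are the annotation, the model formula and the libraries modelled. Per the file headers, the 4 deposited tables give a mean of normalized counts (a signal), a log2 fold change, its standard error, a test statistic (a score) and p-values, without per-library values matching a label; 6 unmatched columns of the input table were not used. IP folds are read as IP over input between genotypes, which the labels do not state.

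Folds over standard errors were tested on whole tables (two-sided normal test, Benjamini-Hochberg over genes with a deposited adjusted p). The procedure was tested on simulated data whose noise was drawn from the deposited standard errors. That simulation therefore cannot show whether these errors fit the real data. In the 3 IP comparisons the normal test replaced the authors' statistic, which covers more terms. In input its adjusted p for the members equalled the authors' own. Means per genotype were solved from the 3 IP tables. Members and lists were chosen with earlier results of these data known. The planned naming rule and RNA classes needed symbols; IDs named are instead the 2 lowest and 2 highest folds per comparison among members with a standard error of at most 1, a rule chosen after the data were seen, and other members are given by rank. Software was Python 3.11.15, numpy 2.4.6, pandas 2.3.3, scipy 1.17.1, statsmodels 0.14.6 and matplotlib 3.10.9.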

Additional observations from a re-analysis of the deposited data

How the results depend on the processing

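No paired analysis was possible because the files pair no library values with the labels; the replicate block and leaving out each replicate were therefore not run. Shares of members are compared with their exact 95% binomial interval. Members lower in ADAR3 WT over control (46.0%) and in R-mutant over control (52.0%) became 33.0% and 34.0% at an adjusted p under 0.01, and 87.0% in each by the authors' adjusted p, which also called 80.0% in R-mutant over ADAR3 WT (0 otherwise). With a minimum mean of 20 in ADAR3 WT over control, the shares were 33.0% and 32.0%, and with 100 they were 62.0% and 66.0%. With the mean of R-mutant over control in the ratio, which shares 59 of its 100 genes with the members, they were 35.0% and 39.0%, and 18.2% were called in input in place of 8.16%. For these shifts the cause was not tested. The other 35 of 47 alternatives stayed within the interval, among them a limit of 50 or 200 genes, a standard error of at most 1 (added after the data were seen) and, for the control mean being highest, 98% to 99% throughout. Depth per library is unknown, and the standard error sets the precision.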

Other observations

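At the other end of the same ratio, the 100 genes with the lowest values had ratios from 0.45 to 0.67. Their median log2 fold change was 1.58 in ADAR3 WT over control and 1.75 in R-mutant over control in the authors' deposited tables, and their median in input was 0.04. Their median standard error in ADAR3 WT over control was 0.39, against 0.46 for the members. Their mean in ADAR3 WT over control was 1.39 times the input mean at the median, against 0.89 times for the members. The ratio chose these genes too, so the values are a description.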
